A study of Mus musculus with 313 samples.

Results

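The cells described here are the innate lymphoid cell precursors (ILCP) of the mouse fetal liver, divided by whether the transcription factor gene Tbx21 was detected in them. The cells were chosen by their measured Tbx21 Ct: a cell counted as Tbx21-detected when its Tbx21 assay gave a Ct below 24. The Ct is the PCR cycle at which the fluorescence of an assay crosses its threshold, so that a lower Ct means more cDNA. In all, 34 ILCP cells met this rule, 20 of 62 in sort 2 and 14 of 90 in sort 3, and 42 and 76 did not. The whole table held 313 single cells of embryonic day 15 (E15) fetal liver, all lineage-negative and positive for the IL-7 receptor and the integrin alpha4-beta7. The ILCP were further sorted as PLZF+. The other groups were alpha-lymphoid precursors (aLP; 55 cells of sort 2 and 92 of sort 3), sorted as PLZF- CXCR5-, and 14 lymphoid tissue inducer precursors (LTiP), sorted as PLZF- CXCR5+. Each cell was measured with 100 multiplex RT-PCR assays for lymphoid development genes. The livers were pooled before sorting, no cell received any treatment that the labels name, and no source used here gives the strain or a reporter allele.

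Tbx21 encodes T-bet, a T-box transcription factor that directs the type 1 programme of lymphocytes, including interferon-gamma production by natural killer (NK) cells and group 1 innate lymphoid cells (ILC1). Its close relative Eomes encodes eomesodermin, which together with T-bet drives the maturation of conventional NK cells. ILCP carry PLZF, the product of Zbtb16, and give rise to helper innate lymphoid cells of groups 1, 2 and 3. Gata3 and Bcl11b are known for the group 2 fate, and Cxcr5 for lymphoid tissue inducer (LTi) cells.

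The promoter windows of Tbx21 and of the genes Eomes and Ltb, which were detected together with it in the cells described below, are shown because T-box proteins bind a short DNA core. The RefSeq windows of build GRCm38.p6 are made from 250 bases before to 50 bases after a gene start and run 5′ to 3′ on the gene's own strand; the annotated Eomes gene begins at 118478186, a few bases before the start that its window implies. The T-box core AGGTGTG was searched on both strands (reverse complement CACACCT), and capitals mark it where it was found. The windows lie at chr11:97115282-97115581 on the minus strand for Tbx21, at chr9:118477939-118478238 on the plus strand for Eomes and at chr17:35194257-35194556 on the plus strand for Ltb.
Tbx21: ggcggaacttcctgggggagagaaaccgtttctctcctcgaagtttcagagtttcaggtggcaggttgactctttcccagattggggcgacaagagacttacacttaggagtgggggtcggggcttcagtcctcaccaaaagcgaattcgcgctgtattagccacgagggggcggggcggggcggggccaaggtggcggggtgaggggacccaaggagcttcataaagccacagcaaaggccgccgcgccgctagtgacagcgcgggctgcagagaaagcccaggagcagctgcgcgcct
Eomes: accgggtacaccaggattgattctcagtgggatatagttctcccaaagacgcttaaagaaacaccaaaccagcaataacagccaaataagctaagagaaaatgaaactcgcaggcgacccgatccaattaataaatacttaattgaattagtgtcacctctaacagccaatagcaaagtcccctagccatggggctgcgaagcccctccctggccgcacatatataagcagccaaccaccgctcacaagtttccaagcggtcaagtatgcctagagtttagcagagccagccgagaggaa
Ltb: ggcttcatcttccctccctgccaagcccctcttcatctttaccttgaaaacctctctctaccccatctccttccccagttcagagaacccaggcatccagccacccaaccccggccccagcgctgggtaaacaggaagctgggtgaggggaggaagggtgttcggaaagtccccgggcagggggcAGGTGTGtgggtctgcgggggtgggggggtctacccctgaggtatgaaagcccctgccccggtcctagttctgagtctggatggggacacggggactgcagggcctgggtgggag
The Ltb window held 1 match, which began at position 186 counted from its 5′ end, upstream of the gene start. The windows of Tbx21 and Eomes held none, which says only that these letters are not in these windows. Over all RefSeq mouse promoter windows of this length, 5.84% (1920 of 32851) held the core. Of 110 windows of 77 panel genes, 5 held it, those of Ebf1, Il17rb, Il2ra, Lef1 and Ltb. A match is a description of the letters and not a bound site.

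The Tbx21 values selected the cells and are given as a description only. In sort 2, Tbx21 was detected in 32.3% of the ILCP (20 of 62; exact 95% binomial interval 20.9 to 45.3%), with a median Ct of 17.3 and a highest of 19.8, while the lowest lay just under 15. In sort 3, it was detected in 15.6% (14 of 90; interval 8.77 to 24.7%), with Ct values from 15.7 through a median of 19.7 to 21.4. The intervals cover counting error only. The highest Tbx21 Ct of any ILCP was 21.4, and no ILCP had a Tbx21 Ct at or above 24, so that the other cells had no Ct at all and a limit of 22 chose the same cells. The Ct values of sort 2 were spread over this range. Those of sort 3 lay apart, with 3 cells at 16.01 or lower and 11 cells at 19.6 or higher. A missing Ct in a single cell can mean too little RNA to be amplified as well as no transcript, and these cannot be told apart here.

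**Figure D1:**
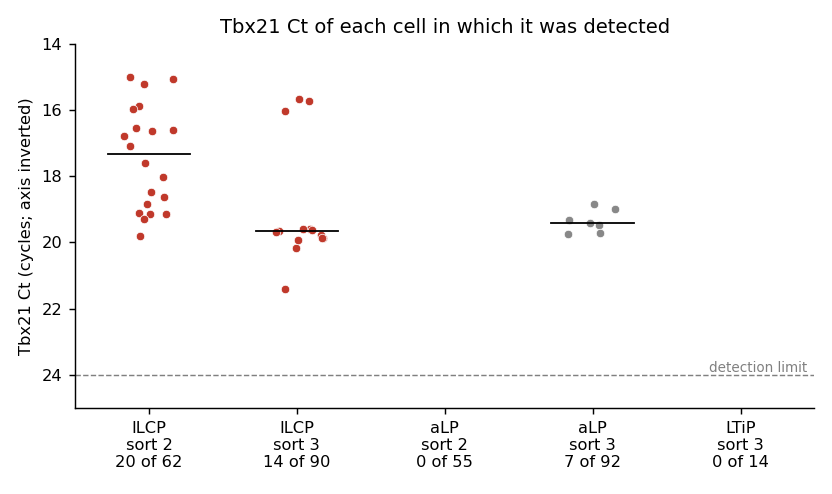
Ct of Tbx21 (cycles, axis inverted so that more cDNA is higher) in each cell with a value, by group and sort; the black lines are medians, the dashed line is the detection limit of 24, and the fractions give cells with Tbx21 of all cells. ILCP of sort 2 spread from about 15 to 19.8, most ILCP of sort 3 lie near their median of 19.7, and the 7 aLP cells lie between 18.8 and 19.7.

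The labelled identity of the cells was checked against the genes of the gate. Zbtb16 was detected in 19 of 20 and 13 of 14 Tbx21-detected cells (sorts 2 and 3) and in 39 of 42 and 74 of 76 Tbx21-undetected cells. Il7r, the receptor chain used in the gate, was detected in 8 of 20 and 4 of 14 Tbx21-detected cells and in 26 of 42 and 34 of 76 of the others, and Itga4, the integrin alpha4 chain, in 18 of 20 and 13 of 14 against 41 of 42 and 76 of 76. The transcript of the gate's receptor was therefore not found in every sorted cell of either kind. Of the markers of other cell types on the panel, the B lineage factor Ebf1 was at 0 in every ILCP. Rag2, a recombinase gene of early lymphoid progenitors, was detected in 0 of 20 and 1 of 14 Tbx21-detected cells and in 9 of 42 and 10 of 76 of the others. Itga2b, a megakaryocyte integrin that early progenitors also carry, was detected in 4 of 20 and 2 of 14 against 10 of 42 and 29 of 76. Bcl11a, of the B lineage list, was in 0 of 20 and 0 of 14 against 3 of 42 and 2 of 76. Other members of these lists had higher shares with Tbx21. Irf8, of the B lineage and myeloid lists, was in 11 of 20 and 9 of 14 against 14 of 42 and 21 of 76. Foxo1, of the B lineage list, was in 14 of 20 and 10 of 14 against 25 of 42 and 44 of 76.

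The number of assays detected per cell was close in the cells with and without Tbx21. Apart from Tbx21 itself, a Tbx21-detected cell of sort 2 had between 25 and 54 assays detected with a mean of 41.7, and a cell of sort 3 between 25 and 50 with a mean of 41.3. Tbx21-undetected cells had between 23 and 49 with a mean of 39.8 in sort 2 and between 30 and 53 with a mean of 40.5 in sort 3. The ranges over cells overlapped almost entirely, and the difference was 1.89 assays in sort 2 and 0.759 in sort 3. Over the sorts as replicates, the means were 41.5 ± 0.293 with Tbx21 and 40.2 ± 0.507 without (SD, n = 2 sorts), and an exact two-sided permutation test over the 4 pools gave p = 0.333, the smallest value this design allows. The mean Ct of Actb was 12.3 and 12.8 with Tbx21 and 12.4 and 12.7 without, in sorts 2 and 3, and that of Gapdh 13.7 and 14.2 against 13.3 and 14.0. For Hprt it was 16.2 and 15.6 against 16.2 and 16.5. The value of 15.6 contains 1 cell with an Hprt Ct of 2.51, and was 16.6 without it. Cell names also carry a number. In sort 3, 4 of 14 Tbx21-detected and 15 of 76 undetected cells were numbered 1 to 96, and in sort 2, 16 of 20 and 36 of 42. No source used here gives the meaning of these numbers, and their part in the results was not tested beyond the values given for cells numbered 1 to 96.

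**Figure D2:**
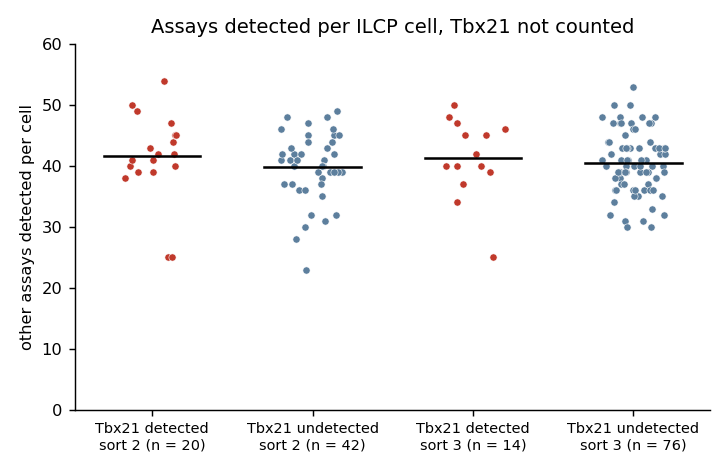
Number of assays other than Tbx21 detected in each ILCP cell (vertical axis, count), by sort and Tbx21 detection; each point is a cell and the black lines are means. The means lie at 41.7 and 39.8 in sort 2 and at 41.3 and 40.5 in sort 3, and the points overlap.

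All other assays were then compared between cells with and without Tbx21. The level of an assay in a cell was 24 minus its Ct, or 0 where it was not detected, and the mean over all cells of 1 sort and 1 Tbx21 state is called a pool, with 2 pools per state. A difference in mean level is in cycles; it depends on how many cells detected the assay and on how much they held, and cannot be read as a fold change. Of 89 assays tested, the level was higher with Tbx21 in both sorts for 28 (31.5%), lower in both for 32 (36%) and of opposite sign for 29. Eomes and Ncr1, among the higher, reached the 5% of cells needed for testing only in pools with Tbx21. Bcl11a, among the lower, reached it only in the undetected pool of sort 2. The signs of these genes could hardly be otherwise. The median difference over all tested assays was 0.0049 cycles. Across the 89 assays, which are not independent of each other, the differences of the 2 sorts had a Pearson correlation of 0.41 and a Spearman correlation of 0.43.

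No assay passed the test without a block for the sort. Limma with Benjamini-Hochberg adjustment over the 89 assays called 0 (0%) at an adjusted p of 0.05, with 8 (8.99%) at an unadjusted p under 0.05 and a lowest adjusted p of 0.529. Those 8 were Tnfrsf9, Il2rb, Irf8, Lmo4, Eomes, Tle3, Itga4 and Notch1. Eomes reached the 5% filter only in pools with Tbx21, so its place among them is a description only. With the number in the cell names read as the sort, which no label defines, cells of both states share a sort. On that reading, the fit with the sort as a replicate block is the paired form. It called 2 assays (2.25%): Sox4, with an adjusted p of 0.00734, and Ltb, with an adjusted p of 0.0484. When the Tbx21-undetected cells were reweighted to the same number of detected assays per cell, limma called 0 (6 of 89, 6.74%, at an unadjusted p under 0.05; lowest adjusted p 0.482), and the blocked form of this fit called Sox4 alone (1.12%; adjusted p 0.00312, against 0.0503 for Ltb). The replicates are 2 sorts of pooled livers, so these p-values rest on a spread from 4 pools.

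**Figure D3:**
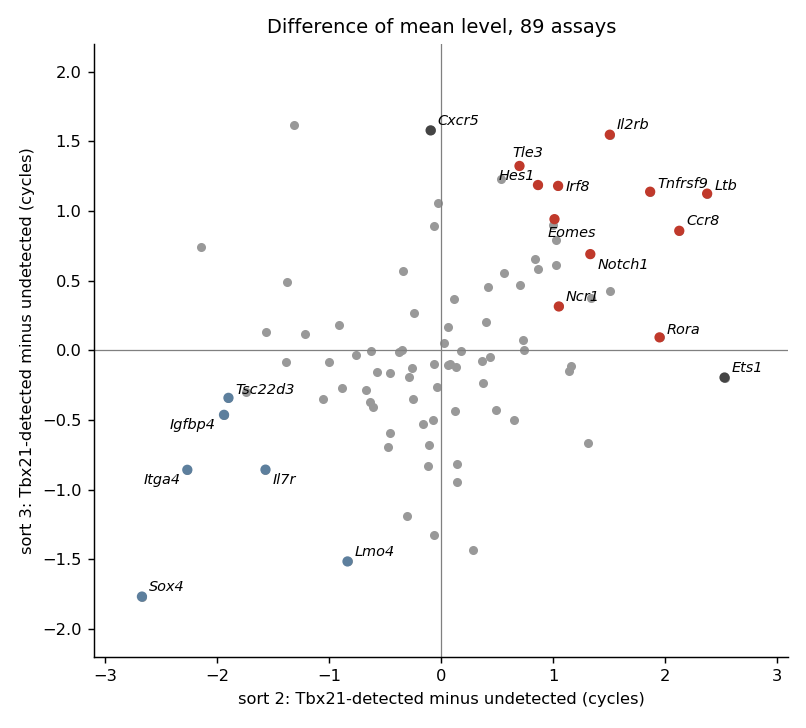
Difference in mean level (cycles; Tbx21-detected minus undetected ILCP) in sort 2 (horizontal axis) and in sort 3 (vertical axis) for the 89 assays tested, with a point for each. Red points are named genes higher with Tbx21 in both sorts, blue ones lower in both, and dark ones of opposite sign; Ltb, Il2rb and Tnfrsf9 lie at the upper right and Sox4 at the lower left.

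Sox4, which encodes a SoxC transcription factor of early lymphoid precursors, had the largest difference of any assay and was lower with Tbx21. Its mean level was 1.86 and 4.05 in the Tbx21-detected pools of sorts 2 and 3 and 4.53 and 5.82 in the undetected pools. Both Tbx21-detected pools lay below both undetected ones. The differences were -2.67 and -1.77 cycles, with a mean of -2.22 ± 0.89 (SE, n = 2 pools per state; limma adjusted p 0.583, and with the sort as a block SE 0.44 and adjusted p 0.00734). Sox4 was detected in 8 of 20 and 10 of 14 cells with Tbx21 and in 28 of 42 and 69 of 76 without. At a matched number of detected assays the difference was -2.43. The size depended on which pool was used: it was -1.12 without the Tbx21-detected pool of sort 2, -3.32 without that of sort 3, -2.86 without the undetected pool of sort 2 and -1.58 without that of sort 3. Such a value sets a pool of 1 sort against pools of both.

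Ltb, which encodes lymphotoxin beta, a membrane ligand needed for lymph node formation, was higher with Tbx21. Its mean level was 3.39 and 1.48 in the Tbx21-detected pools and 1.02 and 0.36 in the undetected pools, with no overlap. The mean difference was 1.75 ± 0.74 (SE; limma adjusted p 0.602, and 0.0484 with the sort as a block, SE 0.45). Ltb was detected in 12 of 20 and 5 of 14 cells with Tbx21 (lowest Ct 17.2, median 18.7, highest 21.01) and in 9 of 42 and 7 of 76 cells without. The difference was 0.80 without the Tbx21-detected pool of sort 2 and 2.70 without that of sort 3. The shares in other groups were 5 of 55 and 2 of 92 aLP cells of sorts 2 and 3 and 5 of 14 LTiP. Ltb's neighbour in the same cytokine family, Lta, encodes lymphotoxin alpha and had a mean level of 2.23 and 0.98 with Tbx21 and 1.39 and 0.33 without (adjusted p 0.686, and 0.343 with the block).

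Among the genes of ILC1 and NK cells, 5 of 6 tested members had a higher level with Tbx21 in both sorts, beside 31.5% of all tested assays, and none passed the test. Their median difference was 0.91 cycles, against 0.0049 over all assays, and 0.78 at a matched number of detected assays. Eomes and Ncr1 are among the 5 and reached the 5% filter only in pools with Tbx21. Without Tbx21, Eomes was in 0 and 1.32% of cells and Ncr1 in 0 and 0%. A gene tested through those pools alone could hardly be lower with Tbx21, so this count and median are a description only. The median cell with Tbx21 had 3 of these 6 genes detected in either sort, and the median cell without had 2. Il2rb, the beta chain of the receptors for IL-2 and IL-15, had a level of 2.25 and 2.75 with Tbx21 and 0.74 and 1.20 without. These pools did not overlap, and the difference was 1.53 ± 0.40 cycles (limma adjusted p 0.529, and 0.0546 with the block). Il2rb was detected in 13 of 20 and 9 of 14 cells with Tbx21 and in 16 of 42 and 32 of 76 without. Il18r1, a chain of the receptor for the interferon-inducing cytokine IL-18, was detected in 15 of 20 and 7 of 14 cells with Tbx21 and in 23 of 42 and 21 of 76 without. Its level was higher by 0.99 and 0.90 cycles (adjusted p 0.615, and 0.199 with the block), and its share with Tbx21 in sort 3 was below its share without in sort 2. The mean difference of 0.95 was 0.37 without the Tbx21-detected pool of sort 2, 0.41 without the undetected pool of sort 3 and 0.40 in cells numbered 1 to 96. Runx3, a Runt factor that acts with T-bet, was detected in 19 of 20 and 14 of 14 cells with Tbx21 and 37 of 42 and 70 of 76 without, with levels of 6.94 and 8.09 against 6.41 and 6.86 (adjusted p 0.615). Il12rb2, a chain of the IL-12 receptor, was the exception: its differences were -0.24 and 0.27 and its mean difference 0.014 cycles.

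Of the 9 ILCP with Eomes, 8 had Tbx21, and so had all 4 with Ncr1. Eomes was detected in 5 of 20 and 3 of 14 cells with Tbx21 (25% and 21.4%) and in 0 of 42 and 1 of 76 without, where 0 of 42 allows a share of up to 7.14%. Its mean level was 1.01 and 0.99 with Tbx21 and 0 and 0.04 without, a difference of 0.98 ± 0.34 cycles (limma adjusted p 0.529, and 0.199 with the block) that was 0.54 in cells numbered 1 to 96. Among aLP cells Eomes was found in 0 of 55 and 0 of 92, which allows shares of up to 5.45% and 3.2609%, and in 0 of 14 LTiP, which allows up to 21.4%. Ncr1, which encodes the natural cytotoxicity receptor NKp46, was detected in 3 of 20 and 1 of 14 cells with Tbx21 and in 0 of 42 and 0 of 76 without (adjusted p 0.615, and 0.382 with the block). As Eomes and Ncr1 reached the 5% filter only in pools with Tbx21, their adjusted p-values are a description only. All 4 Ncr1 cells also had Eomes. The 8 cells with Tbx21 and Eomes all had Tnfrsf9, and 7 had Ltb, 7 had Il2rb and 6 had Il18r1. Their Tbx21 Ct ran from 15.7 to 19.6 and they had between 39 and 47 other assays detected. The 1 ILCP with Eomes but no Tbx21 Ct had an Eomes Ct of 20.7 and 50 other assays detected, and also had Il2rb and Tnfrsf9.

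The differences of the called genes and of Il2rb, Tnfrsf9 and Irf8 kept their sign without the cells with Eomes. With all 9 Eomes cells left out, a choice made after seeing the data, the difference was 1.27 cycles for Ltb, 1.11 for Il2rb, 1.17 for Tnfrsf9, 1.41 for Irf8 and -1.98 for Sox4, and limma called 0 of 87 assays. The cell with the Hprt Ct of 2.51 was 1 of those with Tbx21, Eomes and Ncr1.

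**Figure D4:**
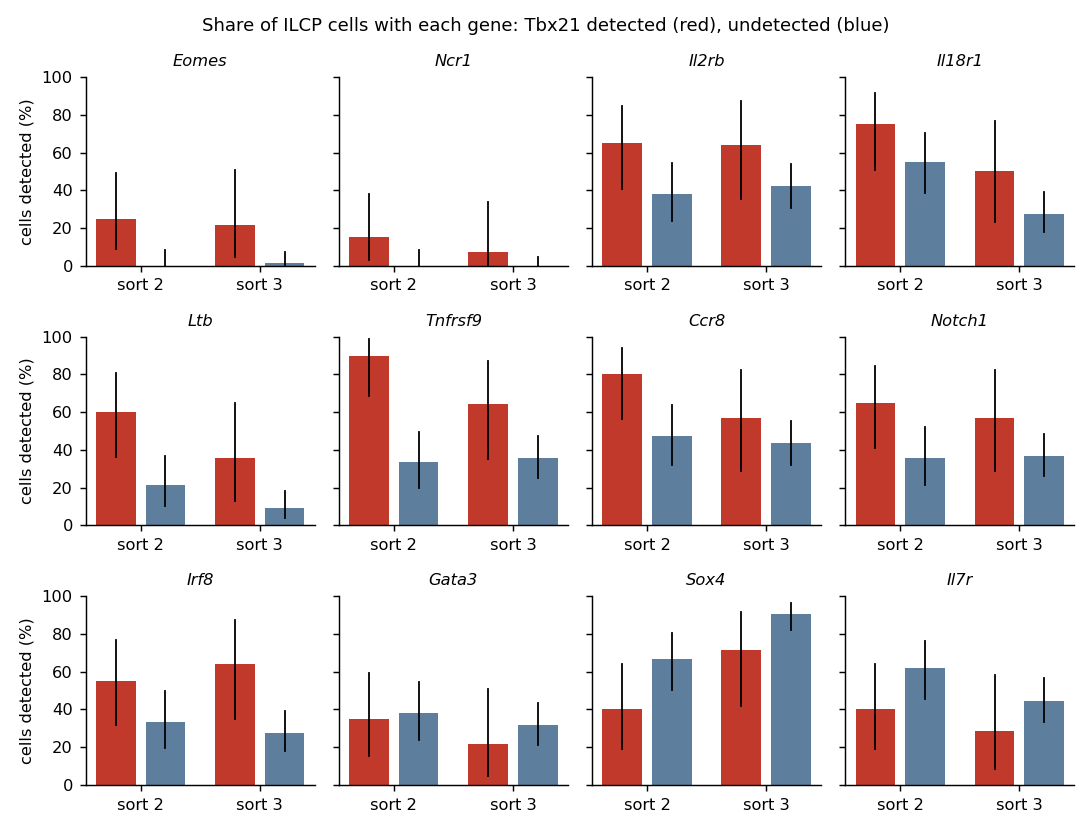
Percentage of ILCP cells in which each of 12 genes was detected, in sort 2 and sort 3, for cells with Tbx21 (red) and without (blue); lines are exact 95% binomial intervals, which cover counting error only. Eomes and Ncr1 are at or near 0 without Tbx21, Ltb and Tnfrsf9 are higher with it in both sorts, and Sox4 and Il7r are lower.

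A costimulatory receptor and a chemokine receptor were among the largest differences. Tnfrsf9, which encodes the costimulatory receptor 4-1BB, had a level of 2.47 and 2.01 with Tbx21 and 0.60 and 0.87 without, with no overlap and a difference of 1.50 ± 0.38 cycles (limma adjusted p 0.529, and 0.0546 with the block). It was detected in 18 of 20 and 9 of 14 cells with Tbx21 and in 14 of 42 and 27 of 76 without. Its Ct with Tbx21 reached 23.9, near the limit, and with a limit of Ct 22 the difference was 0.77. Ccr8, a chemokine receptor of type 2 and regulatory lymphocytes, had a level of 4.14 and 2.09 with Tbx21 and 2.01 and 1.23 without (difference 1.49 ± 0.79; adjusted p 0.615, and 0.0581 with the block). The difference was 0.47 without the Tbx21-detected pool of sort 2 and 2.52 without that of sort 3. It was detected in 16 of 20 and 8 of 14 cells against 20 of 42 and 33 of 76.

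Several transcription factors and Notch genes were higher with Tbx21 in both sorts without passing the test in any fit. Irf8, an interferon regulatory factor of myeloid, B and NK cell development, had a level of 2.91 and 2.77 with Tbx21 and 1.87 and 1.59 without, with no overlap (difference 1.11 ± 0.35; limma adjusted p 0.529, and 0.157 with the block). In cells numbered 1 to 96 this difference was 0.23. Notch1 was detected in 13 of 20 and 8 of 14 cells with Tbx21 and in 15 of 42 and 28 of 76 without (difference 1.01 ± 0.38; adjusted p 0.529, and 0.197 with the block). Hes1, a transcriptional target of Notch, was detected in 11 of 20 and 12 of 14 against 16 of 42 and 44 of 76 (difference 1.03 ± 0.65; adjusted p 0.615), and its difference was 0.34 without the Tbx21-detected pool of sort 3 and 0.50 without the undetected pool of sort 2. Tle3, a Groucho family co-repressor, was detected in all 34 cells with Tbx21 and in 42 of 42 and 73 of 76 without, with a difference of 1.01 ± 0.37 and levels of 8.46 and 8.80 against 7.76 and 7.48 (adjusted p 0.529, and 0.197 with the block). Of 11 tested genes of the T lineage and Notch list, 3 were higher and 4 lower in both sorts, with a median difference of 0.0049. Over all tested assays the shares were 31.5% and 36%.

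Among the genes with lower levels, 2 belong to the gate or to lymphocyte homing. Itga4 had a level of 6.31 and 7.71 with Tbx21 and 8.57 and 8.56 without, with no overlap (difference -1.56 ± 0.57; limma adjusted p 0.529, and 0.0546 with the block). Il7r had a level of 2.62 and 1.61 with Tbx21 and 4.19 and 2.46 without (difference -1.21 ± 0.73; adjusted p 0.615, 0.152 with the block, and 0.0503 with the block at matched assays), and the difference was -0.35 without the undetected pool of sort 2 and -0.71 without the Tbx21-detected pool of sort 3. Lmo4, a LIM-only cofactor, had levels of 7.27 and 6.77 against 8.10 and 8.28 (difference -1.18 ± 0.38; adjusted p 0.529). It was detected in 94.1% of the cells with Tbx21 and 98.3% of those without. Tcf3, which encodes the E proteins E12 and E47, was detected in 14 of 20 and 7 of 14 cells with Tbx21 and in 29 of 42 and 59 of 76 without (difference -0.75 ± 0.43; adjusted p 0.615). Cbfb, the partner of the Runt factors, had a difference of -0.70 ± 0.38 with an adjusted p of 0.615.

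Igfbp4, Tsc22d3 and Trp53 had larger differences in sort 2 than in sort 3, of the same sign. Igfbp4, which encodes a binding protein of insulin-like growth factors, was detected in 2 of 20 cells with Tbx21 and 17 of 42 without in sort 2, and in 10 of 14 and 54 of 76 in sort 3. Tsc22d3, the glucocorticoid-induced leucine zipper gene, was detected in 3 of 20 against 19 of 42 in sort 2 and in 8 of 14 against 50 of 76 in sort 3. The differences within sorts 2 and 3 were -1.94 and -0.46 cycles for Igfbp4 and -1.90 and -0.34 for Tsc22d3, with means of -1.20 ± 1.46 and -1.12 ± 1.09. Without the Tbx21-detected pool of sort 2, which sets the sort 3 pool against the undetected pools of both sorts, they were 0.66 and 0.33. Trp53, the tumour suppressor gene, was detected in 12 of 20 against 34 of 42 and in 11 of 14 against 66 of 76 cells, with differences of -1.39 and -0.084 within the sorts, a mean of -0.73 ± 0.63, and 0.069 without the same pool. Ets1, a factor needed for NK cell and group 2 development, differed in sign between the sorts, with 19 of 20 against 29 of 42 cells in sort 2 (difference 2.53) and 10 of 14 against 58 of 76 in sort 3 (difference -0.19).

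Genes of the group 2 lineage were found in cells with Tbx21 as well as without. Gata3 was detected in 7 of 20 and 3 of 14 cells with Tbx21 and in 16 of 42 and 24 of 76 without (difference -0.34 ± 0.44; limma adjusted p 0.712; 0.041 without the Tbx21-detected pool of sort 3). Bcl11b was detected in 7 of 20 and 2 of 14 against 15 of 42 and 27 of 76 (difference -0.52 ± 0.39; adjusted p 0.686). Both genes were detected together in 3 of 20 and 1 of 14 cells with Tbx21 and in 7 of 42 and 12 of 76 without.

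By the gene lists, 4 of 6 tested LTi and ILC3 genes were higher in both sorts and 1 lower, with a median difference of 0.73 cycles. Over all tested assays, 31.5% were higher and 36% lower in both sorts. The list's members Tnfsf11, Il23r and Il1r1 fell below the filter, with 0 of 20 and 0 of 14 cells with Tbx21. Without it, Tnfsf11 and Il23r were each in 1 of 42 cells of sort 2 and 0 of 76 of sort 3, and Il1r1 in none. Cxcr5, the receptor that marks the LTi precursors in the gate, was detected in 8 of 20 and 10 of 14 cells with Tbx21 and in 16 of 42 and 31 of 76 without, so that its difference was -0.09 in sort 2 and 1.58 in sort 3. Of 10 tested ILC2 genes, 2 were higher (Rora and Ccr8) and 4 lower in both sorts, with a median of -0.086. Rora, the retinoic acid receptor-related factor needed for group 2 cells, was detected in 18 of 20 and 12 of 14 cells with Tbx21 and in 28 of 42 and 59 of 76 without (difference 1.95 in sort 2 and 0.09 in sort 3; adjusted p 0.615). Of 11 precursor transcription factors, 2 were higher and 7 lower in both sorts, beside 36% of all tested assays, with a median difference of -0.24 and of -0.43 at matched assays. Zbtb16 itself had levels of 7.31 and 7.84 with Tbx21 and 7.60 and 8.03 without (difference -0.24 ± 0.40; adjusted p 0.768; 0.023 without the Tbx21-detected pool of sort 2). Of the tested members of these lists, Ltb alone passed the test, in 1 of the 4 fits described above.

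The remaining lists held no called assay, and their counts stand beside 31.5% of all tested assays higher and 36% lower in both sorts. Of 8 tested cytokine receptor genes, 2 were higher in both sorts (Il2rb and Il18r1) and 4 lower, with a median difference of -0.069 cycles. Of 6 chemokine receptor, integrin and homing genes, 1 was higher (Ccr8) and 3 lower, with a median of -0.30. The 3 tested B lineage genes had 2 higher (Irf8 and Foxo1) and 1 lower (Bcl11a). Bcl11a reached the 5% filter only in the undetected pool of sort 2, so its sign could hardly be otherwise. The 4 Groucho genes had 1 higher (Tle3) and 1 lower, and the 4 imprinted and growth factor axis genes none higher and 1 lower (Igfbp4). The 4 housekeeping genes had none higher and 2 lower in both sorts, with a median of -0.16. The median cell, with or without Tbx21, had 1 of the 2 myeloid and megakaryocyte genes detected except in sort 2 without Tbx21, where the median was 0.5.

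Ltb, Il2rb and Tnfrsf9 were counted together, a combination chosen after seeing their values, as a description with no test. They were detected together in 14 of 34 cells with Tbx21 (41.2%; 11 of 20 in sort 2 and 3 of 14 in sort 3) and in 8 cells without (6.78%; 6 of 42 and 2 of 76). Of the 14 cells with Tbx21 and this combination, 13 also had Il18r1, and so did all 8 of those without Tbx21.

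The 34 cells with Tbx21 were also described by their Tbx21 Ct, with no test, since this Ct selected the cells. They were divided at a Ct of 18, a bound chosen after seeing the values, as were the genes named, into 14 cells with a lower Ct (11 of sort 2 and 3 of sort 3) and 20 with a higher Ct (9 and 11). Ltb was detected in 12 of the 14, in 5 of the 20 and in 13.6% of the cells without Tbx21. Tnfrsf9 was detected in 14 of 14, 13 of 20 and 34.7%, and Il18r1 in 13 of 14, 9 of 20 and 37.3%. In both, the cells of low Ct had the highest share. Ccr8 was detected in 13 of 14, 11 of 20 and 44.9%, and Foxo1, a forkhead factor of lymphocyte homeostasis, in 13 of 14, 11 of 20 and 58.5%.

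Other genes had a lower share in these 14 cells of low Tbx21 Ct. Tsc22d3 was detected in 0 of 14 cells, which allows a share of up to 21.4%, in 11 of 20 and in 58.5% of the cells without Tbx21. Cdkn1c, an imprinted cell cycle inhibitor gene, was detected in 1 of 14, 7 of 20 and 41.5%. Sox4 was detected in 5 of 14, 13 of 20 and 82.2%. Within sort 2, Cdkn1c was in 1 of 11 cells of low Ct and 1 of 9 of high Ct. Sox4 was in 4 of 11 and 4 of 9 there. Within sort 3, Cdkn1c was in 0 of 3 and 6 of 11 and Sox4 in 1 of 3 and 9 of 11. Between low and high Ct, these shares were close in sort 2 and apart in sort 3. Itga4 was detected in 11 of 14 and 20 of 20. The cells of low Ct had a mean of 43.4 other assays detected against 40.3 in both other classes, and their mean Actb Ct was 12.2 against 12.7 and 12.6. As 11 of the 14 came from sort 2, class and sort overlap; within sort 2, Ltb was detected in 9 of 11, 3 of 9 and 9 of 42 cells and Tsc22d3 in 0 of 11, 3 of 9 and 19 of 42, and within sort 3 in 3 of 3, 2 of 11 and 7 of 76 and in 0 of 3, 8 of 11 and 50 of 76. The part of the assay number in these shares was not tested.

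**Figure D5:**
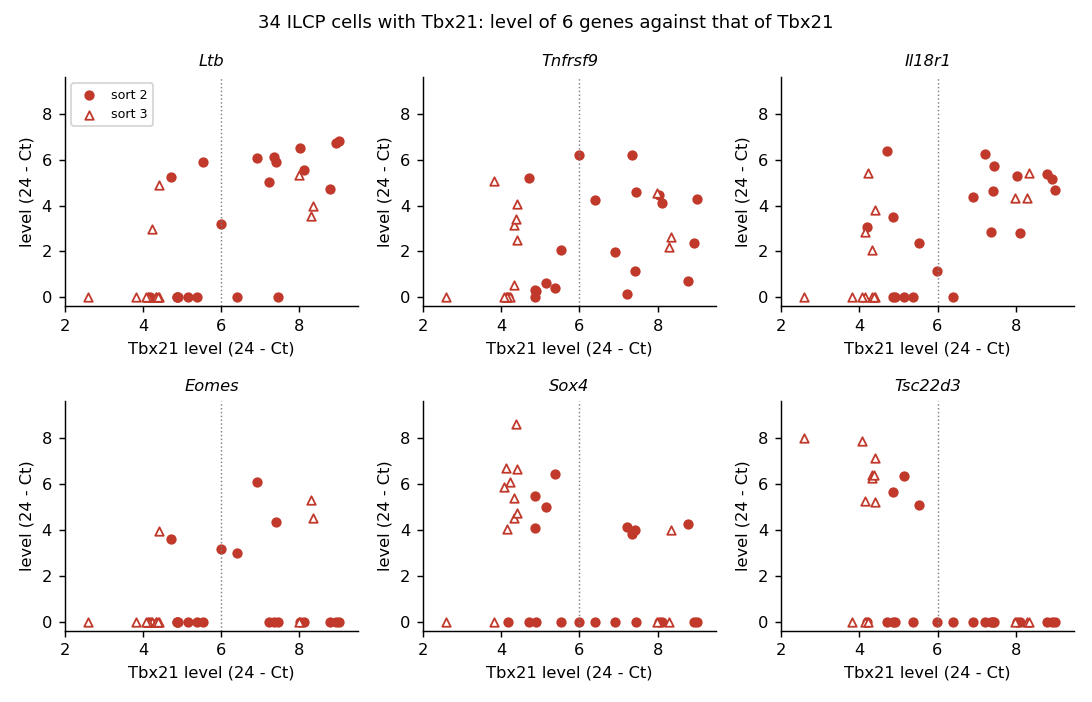
Level (24 minus Ct, cycles; 0 where undetected) of 6 genes against the level of Tbx21 in the 34 ILCP cells with Tbx21, filled circles for sort 2 and open triangles for sort 3; the dotted line is a Tbx21 level of 6, which is a Ct of 18. Ltb, Tnfrsf9 and Il18r1 are mostly above 0 to the right of the line, and Tsc22d3 is at 0 in all 14 cells there.

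Outside the ILCP, Tbx21 was detected in 7 of 92 aLP cells of sort 3 (7.61%, with an exact 95% upper bound of 15.1%), and in none of the 55 aLP of sort 2 (exact 95% upper bound 6.49%) or the 14 LTiP. The 7 aLP cells had Tbx21 Ct values from 18.8 to 19.7 and a median of 26 other assays detected, against 28 in the aLP without. None of the 7 had Eomes, Ncr1, Il2rb, Il18r1, Ltb, Tnfrsf9, Rora or Zbtb16. Of the 85 aLP cells of sort 3 without Tbx21, 0 had Eomes or Ncr1, 1 had Tnfrsf9 and 2 had Ltb. Rora was in 2, Zbtb16 in 3, Il18r1 in 10 and Il2rb in 20 of these 85. With 7 cells, a share of 0 does not set them apart for any of these genes. Irf8 was detected in 7 of 7 and Runx3 in 6 of 7, against 66 and 57 of the 85 aLP cells of sort 3 without Tbx21. Over the other groups, Tnfrsf9 was detected in 0 of 55 and 1 of 92 aLP cells and 3 of 14 LTiP, and Il2rb in 12 of 55, 20 of 92 and 9 of 14.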

How the data were processed

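Single cells were measured with a Biomark HD microfluidic RT-PCR system after 22 cycles of preamplification, per the labels' protocols. The deposited values are raw Ct values of 100 assays, not normalized by the authors, per the file headers. How a missing Ct was set, which chemistry each assay used, and whether a probe covers 1 transcript form is stated in no source used here. Per the labels, there were 2 sorting experiments; the number 2 or 3 in each cell's name was read as the sort, which no label defines.

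Detection was a Ct below 24. Where a share was 0, the share said to be allowed is 3 cells over the number of cells, unless called an exact bound. An assay was tested where 1 or more of the 4 pools detected it in 5% of cells or more (89 of 100; 2 assays never gave a Ct), with Tbx21 left out. Pool means were compared with limma 3.58.1 (lmFit and eBayes, R 4.3.3) with Benjamini-Hochberg adjustment at 0.05. A second comparison reweighted the cells without Tbx21 to the cells with it over 3 strata of detected assays. The script was tested on simulated data. Pools with the same sort number were taken to come from the same sorting experiment, which rests on this reading of the cell names. Over the tested assays their deviations from the state means had a correlation of 0.54, a single value with 2 pairs. On that reading, the sort as a replicate block is a paired fit. Nothing else in the labels says that the sorts are biological repeats, and p-values measure the spread between these pools, which may be technical. Depth is not counted by this assay, and the number of cells per pool (14 to 76) limits the precision. No 2 ILCP cells had identical profiles.

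The members, the gene lists and the tests were chosen with earlier results of these data known. Named genes were any assay called, the 10 largest mean differences in each direction among assays of the same sign in both sorts, gate, housekeeping and co-detection genes, all ILC1 and NK genes and up to 4 members of each other list. Symbols were matched to RefSeq GRCm38.p6, 98 by symbol and 1 by synonym. Alternatives varied the detection limit, scaling, filter, block, strata, cell numbers and pools. Some assays that this rule names are not reported here.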

Additional observations from a re-analysis of the deposited data

Results flagged for a closer look

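Tbx21 was also detected in 7.61% of the aLP cells of sort 3, a group that the comparison of ILCP does not use, above the 0 of 55 aLP cells of sort 2. The 7 cells had higher Tbx21 Ct values (18.8 to 19.7) than the median ILCP of sort 2 (17.3) and near the median ILCP of sort 3 (19.7). None had Eomes or Il2rb, which were in 0 and 20 of the 85 aLP cells of sort 3 without Tbx21. With 7 cells, a share of 0 for either gene does not set them apart.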

How the results depend on the processing

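No assay was called under the alternatives of the unblocked comparison or of the matched one, and the fit with the sort as a replicate block, the paired fit, called 2 (Ltb and Sox4) and, at matched assays, 1 (Sox4). The lowest adjusted p by limma ran from 0.00734 to 0.963 over the settings of the first comparison and from 0.00312 to 0.950 over those of the second. Of 709 gene values under alternatives, 690 kept their direction and their side of the threshold, 3 passed it (Ltb, and Sox4 in both blocked fits) and 16 changed sign. Several alternatives could not move a difference: the block, the assay filters and the other Tbx21 limits left it unchanged. No gene was called in either main fit, so the 690 is a description and not a measure of robustness. The sign of Il12rb2, near 0 at 0.014, turned with a limit of Ct 22 (-0.034), in cells numbered 1 to 96 (-1.10) and without cells with Eomes (-0.25), and ran from -0.30 to 0.33 with a pool left out. With a pool left out, Ets1 ran from -0.20 to 2.54, Igfbp4 from -3.07 to 0.66, Tsc22d3 from -2.57 to 0.33, Cxcr5 from -0.090 to 1.58, Gata3 from -0.73 to 0.041, Trp53 from -1.54 to 0.069, Zbtb16 from -0.50 to 0.023 and Cdkn1c from -1.94 to 0.54; each such value sets a pool of 1 sort against pools of both, and Ccr8 (0.47 to 2.52), Hes1 (0.34 to 1.71), Il7r (-2.07 to -0.35), Il18r1 (0.37 to 1.53), Lta (0.12 to 1.37) and Runx3 (0.31 to 1.46) moved without changing sign. In cells numbered 1 to 96 the difference was 1.27 for Ltb, 1.96 for Tnfrsf9, 2.37 for Il2rb, -2.17 for Sox4, -2.46 for Lmo4, -2.32 for Il7r, 0.23 for Irf8, 0.40 for Il18r1 and 0.54 for Eomes, the sign turned for Zbtb16 (0.40), Itga2b (0.14) and Cdkn1c (0.82), and Tbx21 was detected in 30.8% and 21.1% of the ILCP of sorts 2 and 3. The difference in assays per cell ran from 0.76 to 1.89 with a sort left out. With 14 and 20 Tbx21-detected cells, a share of 0 in a pool still allows 21.4% and 15%.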
